A study of Mus musculus with 26 samples.

Results

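The transcripts described here encode the enzymes of glycolysis, of pyruvate entry into mitochondria and of the citric acid cycle, together with lactate dehydrogenase and the enzymes of gluconeogenesis and fructose use. They were taken as a fixed list of 45 genes by symbol, all of which were found among the 55487 genes of the count table. By the place of their proteins, 22 are cytosolic, 22 are mitochondrial and 1, *G6pc*, belongs to the endoplasmic reticulum. RNA was sequenced from the proximal small intestine of 26 mice on a C57BL/6N background, 1 library per mouse, by a method that reads the 3′ ends of messenger RNA. All mice carried a loxP-flanked gene. The knockout mice (tamIEC-KO) also carried Villin-creERT2, in which the Villin promoter drives a tamoxifen-activated Cre in intestinal epithelial cells, whereas their control littermates did not. All mice, controls included, were 8 to 12 weeks old, ate normal chow, received 5 daily tamoxifen injections and were killed 3 or 7 days after the last one. The 4 groups were 7 knockout and 7 control mice at 3 days, and 6 knockout and 6 control mice at 7 days.

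Glycolysis splits glucose into pyruvate in the cytosol and yields a little ATP without oxygen. Pyruvate then either becomes lactate in the cytosol or enters mitochondria, where the pyruvate dehydrogenase complex turns it into acetyl-CoA for the citric acid cycle, whose reduced cofactors feed the respiratory chain. None of the enzymes listed here is encoded by mitochondrial DNA. Enterocytes of the small intestine, besides absorbing sugar, express enzymes of gluconeogenesis and of fructose use such as *Pck1*, *G6pc* and *Khk*.

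Library totals lay between 3720168 and 6338016 counts. The pieces were whole gut wall and differed in what they held. Stomach genes (8 markers) summed to 2898 to 25956 CPM (the count scaled to a common library total, as deposited by the authors) in 4 libraries, namely knockout replicate 1 and control replicates 5 and 7 at 3 days and control replicate 2 at 7 days, and to at most 96.2 CPM in the other 22. Enterocyte genes (12 markers) summed to 753 to 14613 CPM in knockout and 906 to 13884 CPM in control mice at 3 days, and to 3617 to 5420 against 17091 to 32748 CPM at 7 days. Pancreatic genes ranged from 32.3 to 36987 CPM across all libraries. In such bulk samples fewer cells of a type and less RNA per cell cannot be told apart.

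A member was called when the quasi-likelihood test of edgeR gave an adjusted p (Benjamini-Hochberg over all genes tested) under 0.05. Genotype changed few members at 3 days and most of them at 7 days. *Pgk1* and *Pgam1* never exceeded 3 counts in any library and were not tested, which left 43 members. At 3 days 3 of the 43 (6.98%) were called, against 1.43% of the 20760 genes tested. *Pck2* and *Pfkp* were higher and *Pdk2* was lower in the knockouts, beside 1.11% of all genes called higher and 0.323% called lower. At 7 days 30 of the 43 (69.8%) were called, 18 higher and 12 lower, against 38.5% of 20259 genes tested (19.7% higher and 18.8% lower). The members had more counts than most genes, with a median of 557 counts per library at 7 days against 39.4 over all genes tested. When only genes averaging 50 or more counts were considered, the called share was 2.32% at 3 days and 56.9% at 7 days, beside 3 of 39 and 29 of 39 members. Without the 4 stomach-rich libraries, a fit chosen after the values were seen, 4 members were called at 3 days (the same 3 and *Aldoa*) and 29 at 7 days, 28 of them shared with the fit of all libraries.

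The effects were of unequal size. At 7 days 13 members were called with a 2-fold or larger change, 7 higher and 6 lower, whereas 16.0% of all genes tested passed both limits. The higher ones were *Hk1*, *Pck2*, *Pdhb*, *Aldoa*, *Gapdh*, *Pklr* and *Hk2*, and the lower ones were *Pck1*, *G6pc*, *Khk*, *Pdk2*, *Pfkfb3* and *Pkm*. The knockout and control mice did not overlap in CPM for 11 higher and 9 lower members, against 22.6% of all genes tested.

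**Figure D1:**
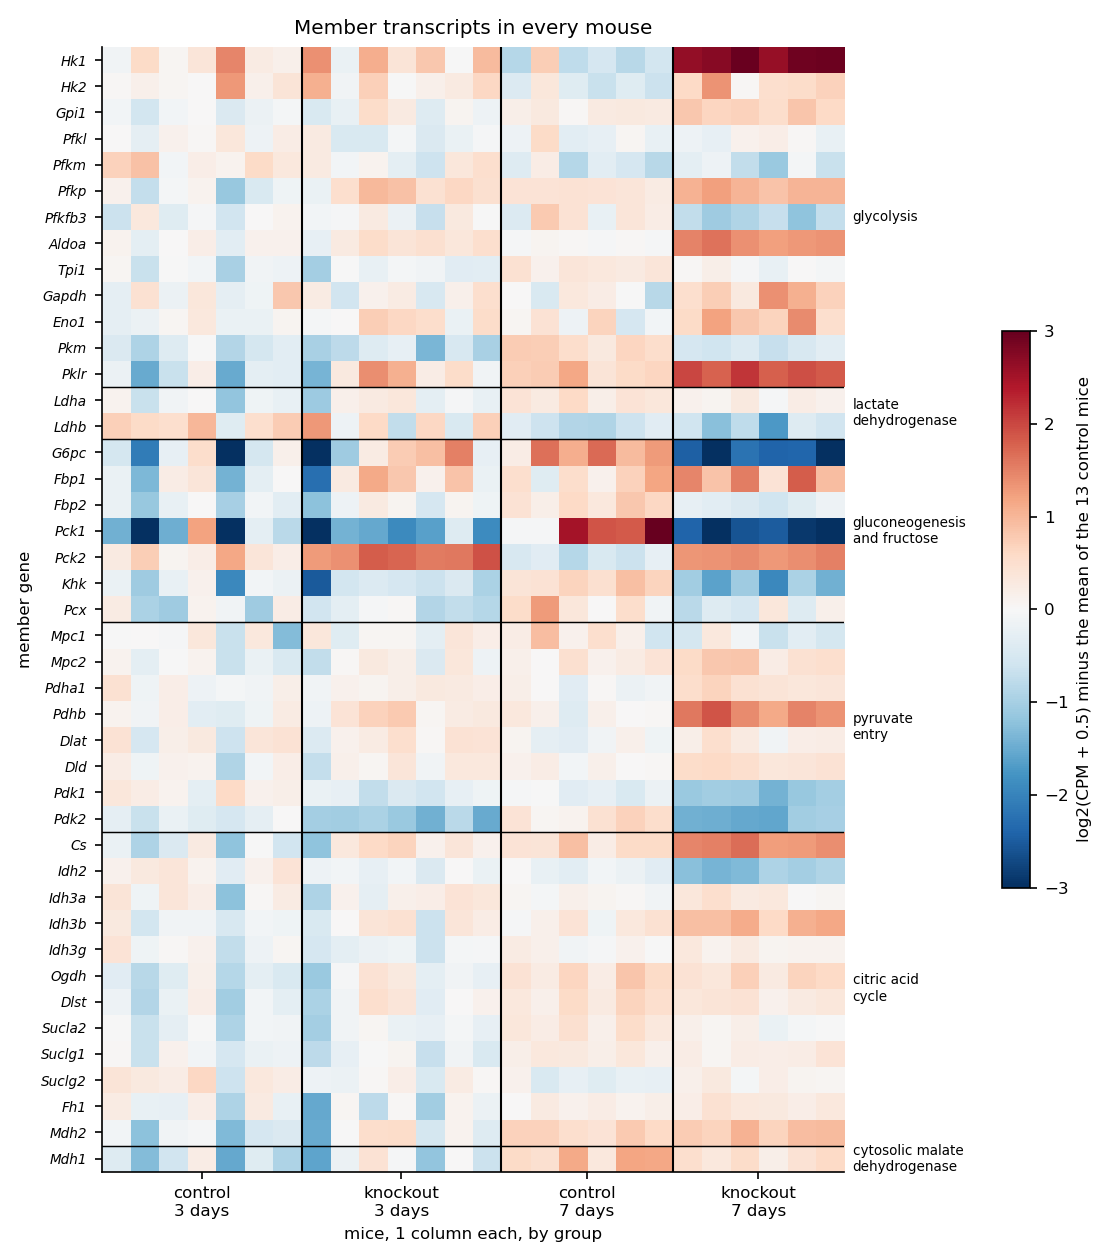
Heat map of the 43 tested members (rows, grouped by role) in each of the 26 mice (columns, grouped by genotype and day), coloured by log2(CPM + 0.5) minus the mean of the 13 control mice, with the scale ending at −3 and 3. The 6 knockout mice at 7 days share dark red in *Hk1* and dark blue in *Pck1* and *G6pc*, while single mice at 3 days, such as knockout replicate 1 and control replicates 2 and 5, are pale to dark blue in many rows.

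**Figure D2:**
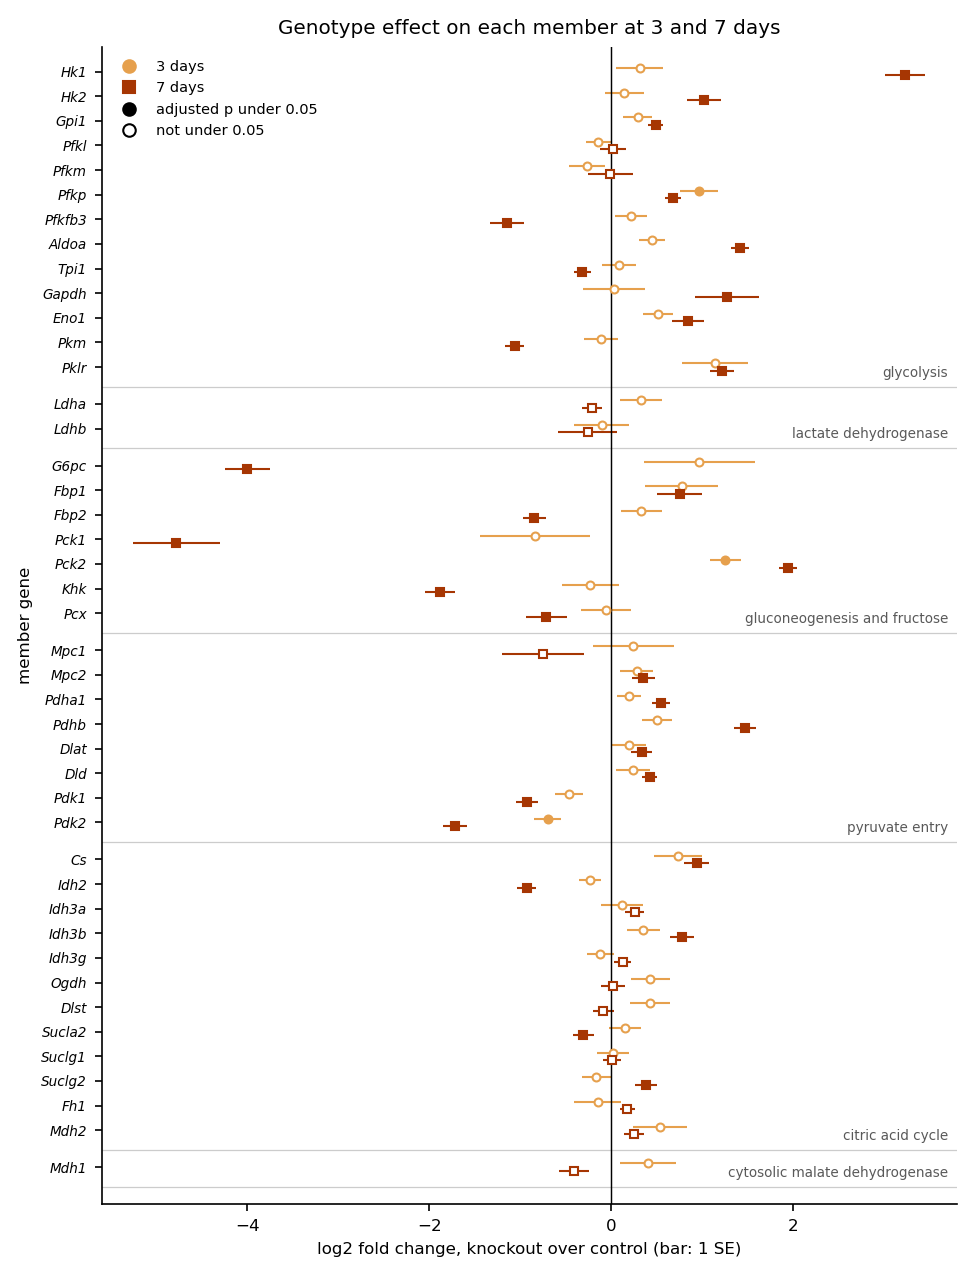
Log2 fold change of knockout over control (x axis) for each tested member (y axis, grouped by role) at 3 days (circles) and 7 days (squares), with bars of 1 SE and filled symbols where the adjusted p was under 0.05. At 3 days 3 symbols are filled, and at 7 days the filled squares run from −4.78 for *Pck1* to 3.23 for *Hk1*.

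Of the glycolytic enzymes, 8 of the 13 tested were higher and 3 were lower in knockout mice at 7 days, against 19.7% and 18.8% of all genes. Relative to controls, *Hk1* and *Aldoa* were raised most among them and *Pfkfb3* and *Pkm* were lowered most. *Hk1*, one of the hexokinases that trap glucose by phosphorylation (GRCm38 chr10:62268855-62379908), lay at 136 to 174 CPM (median 157) in the knockouts and at 11.7 to 36.7 CPM (median 13.7) in the controls at 7 days. Every knockout mouse was above every control mouse, and the log2 fold change was 3.23 ± 0.22 (SE, n = 6 and 6, adjusted p = 1.42e-09). At 3 days the values were 18.9 to 56.5 CPM (median 38.3) against 20.1 to 60.5 CPM (median 25.8), with a log2 fold change of 0.32 ± 0.26 that was not called (adjusted p = 0.656). The highest control value at each day came from a library rich in stomach genes, and without those libraries the controls spanned 20.1 to 32.7 CPM at 3 days and 11.7 to 15.0 CPM at 7 days.

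*Hk2*, the second hexokinase, had 71.7 to 178 CPM (median 104) in knockout and 43.7 to 87.9 CPM (median 53.1) in control mice at 7 days. Its log2 fold change was 1.02 ± 0.19 (adjusted p = 2.25e-04). The overlap came from 1 control library, and without it the controls reached at most 54.5 CPM. At 3 days *Hk2* spanned 65.1 to 147 CPM (median 84.8) and 70.1 to 174 CPM (median 77.6), and the groups overlapped widely. The count ratio of *Hk1* to *Hk2*, read here only between groups because 3′ tag counts were not scaled between genes, was 0.824 to 2.42 in knockout mice at 7 days and 0.219 to 0.417 in their controls. In both groups at 3 days it lay between 0.255 and 0.495.

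Phosphofructokinase, the committed step, has 3 genes. *Pfkp* was called at both times. It lay at 95.3 to 218 CPM (median 157) in knockout and 49.998 to 120 CPM (median 101) in controls at 3 days (log2 fold change 0.96 ± 0.21, adjusted p = 0.0278) and at 200 to 258 CPM (median 225) against 131 to 148 CPM (median 147) at 7 days (0.68 ± 0.09, adjusted p = 7.92e-06). The groups overlapped at 3 days and not at 7 days. The 3-day call did not hold without any 1 of knockout replicates 3 and 4 or control replicates 2, 6 and 7 (log2 fold change 0.88 to 0.99, adjusted p = 0.05355 to 0.07015), with the replicate number as a block (0.97, adjusted p = 0.09674) or with pancreatic and stomach marker scores as covariates (0.76, adjusted p = 0.07414). Of the 50-base stretches in the last 300 bases of *Pfkp* transcripts, 25.0% also occur in *Pitrm1*, which overlaps *Pfkp* on the other strand. Median counts of *Pitrm1* were 107.5 in knockout and 79.5 in control mice at 3 days, and 89.75 and 51.5 at 7 days. The part of shared reads in the *Pfkp* calls was not tested. *Pfkl* was at 24.1 to 33.0 CPM (median 27.4) in knockout and 22.7 to 43.0 CPM (median 25.1) in control mice at 7 days, and at 20.5 to 34.5 (median 24.7) and 23.6 to 36.0 CPM (median 29.1) at 3 days. *Pfkm*, the muscle-type gene, stayed low, at 2.35 to 5.43 CPM (median 3.99) against 2.91 to 6.73 CPM (median 4.04) at 7 days and 3.53 to 8.21 (median 6.10) against 5.38 to 10.8 CPM (median 7.17) at 3 days. Neither *Pfkl* nor *Pfkm* was called at either time, with log2 fold changes of 0.02 ± 0.14 and −0.01 ± 0.25 at 7 days. *Pfkfb3*, which makes the sugar phosphate that activates phosphofructokinase, fell to 7.24 to 10.5 CPM (median 9.63) in knockout mice at 7 days, below all controls at 13.03 to 30.4 CPM (median 21.6). Its log2 fold change was −1.14 ± 0.19 at 7 days (adjusted p = 8.41e-05) and 0.21 ± 0.175 at 3 days, where the medians were 17.01 and 17.03 CPM.

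Further down the pathway *Aldoa*, the aldolase that splits fructose bisphosphate (chr7:126795234-126800751, the one with the reads of 2 Ensembl genes of that symbol), was at 582 to 769 CPM (median 640) in knockout and 242 to 262 CPM (median 250) in control mice at 7 days. The log2 fold change was 1.42 ± 0.10 (adjusted p = 1.80e-09) with no overlap. At 3 days *Aldoa* had 209 to 364 CPM (median 328) against 199 to 286 CPM (median 267), a log2 fold change of 0.45 ± 0.14 that was not called (adjusted p = 0.14). *Gpi1*, the isomerase between both hexose phosphates, was higher at 7 days by 0.49 ± 0.09 (adjusted p = 1.56e-04). *Eno1*, the enolase, was higher by 0.85 ± 0.17 (adjusted p = 7.47e-04), and 86.9% of the 50-base stretches in the last 300 bases of its transcripts also occur in 7 other genes. *Tpi1*, the triose phosphate isomerase, was lower by a small amount (log2 fold change −0.32 ± 0.10, adjusted p = 0.0147).

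*Gapdh* had at most 20 counts in any library, with 1.42 to 3.62 CPM (median 2.11) in knockout and 0.394 to 1.45 CPM (median 1.08) in control mice at 7 days, and 0.555 to 1.74 (median 1.26) against 0.806 to 2.26 CPM (median 0.936) at 3 days. It was called higher at 7 days (log2 fold change 1.27 ± 0.35, adjusted p = 0.00764). This gene shares 78.3% of its 3′ stretches with 175 other genes, and the authors kept only reads of high mapping quality, whose part in the low counts was not tested. *Pgk1* and *Pgam1* share 0% of their stretches, and their few counts cannot be read as absence of the transcripts.

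The counts assigned to the 2 genes of pyruvate kinase, the last step, differed from controls in opposite directions at 7 days. *Pkm* was lower in knockout mice at 7 days, at 55.5 to 72.6 CPM (median 63.8) against 110 to 152 CPM (median 136) in controls. The groups did not overlap and the log2 fold change was −1.06 ± 0.11 (adjusted p = 2.05e-07). At 3 days *Pkm* had 34.5 to 75.8 CPM (median 52.2) in knockout and 47.0 to 89.1 CPM (median 67.1) in control mice, with overlap (−0.11 ± 0.19). The knockout range at 7 days thus lay within that at 3 days, and the control mice at 7 days were all above those at 3 days. *Pklr*, the liver and red cell type, rose to 76.6 to 98.6 CPM (median 82.4) from 29.0 to 50.1 CPM (median 35.6) at 7 days, again with no overlap (1.22 ± 0.14, adjusted p = 8.25e-07). At 3 days *Pklr* spanned 7.99 to 58.9 CPM (median 27.0) in knockout and 7.39 to 25.2 CPM (median 17.6) in control mice, and the log2 fold change of 1.14 ± 0.36 was not called (adjusted p = 0.1455). The 3′ end of *Pklr* overlaps *Hcn3* on the other strand, 63.7% of its stretches are shared with it, and *Hcn3* had nearly the same counts in each group (415.5 to 543 in knockout and 152.5 to 301 in control mice at 7 days, beside 425.5 to 520 and 150.5 to 293 for *Pklr*). As no strand setting is stated for the counting, reads from the 2 genes cannot be told apart.

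The lactate dehydrogenase genes, whose products exchange pyruvate and lactate, were not called at either time. *Ldha* was at 418 to 531 CPM (median 474) in knockout and 489 to 655 CPM (median 558) in controls at 7 days (log2 fold change −0.21 ± 0.11, adjusted p = 0.145), and at 203 to 546 (median 417) and 189 to 461 CPM (median 392) at 3 days. *Ldhb* had few counts, at 0.543 to 2.14 CPM (median 1.63) against 1.35 to 2.21 CPM (median 1.74) at 7 days and 1.57 to 7.99 (median 4.66) against 2.15 to 6.39 CPM (median 4.65) at 3 days. For both genes the groups overlapped at both times.

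**Figure D3:**
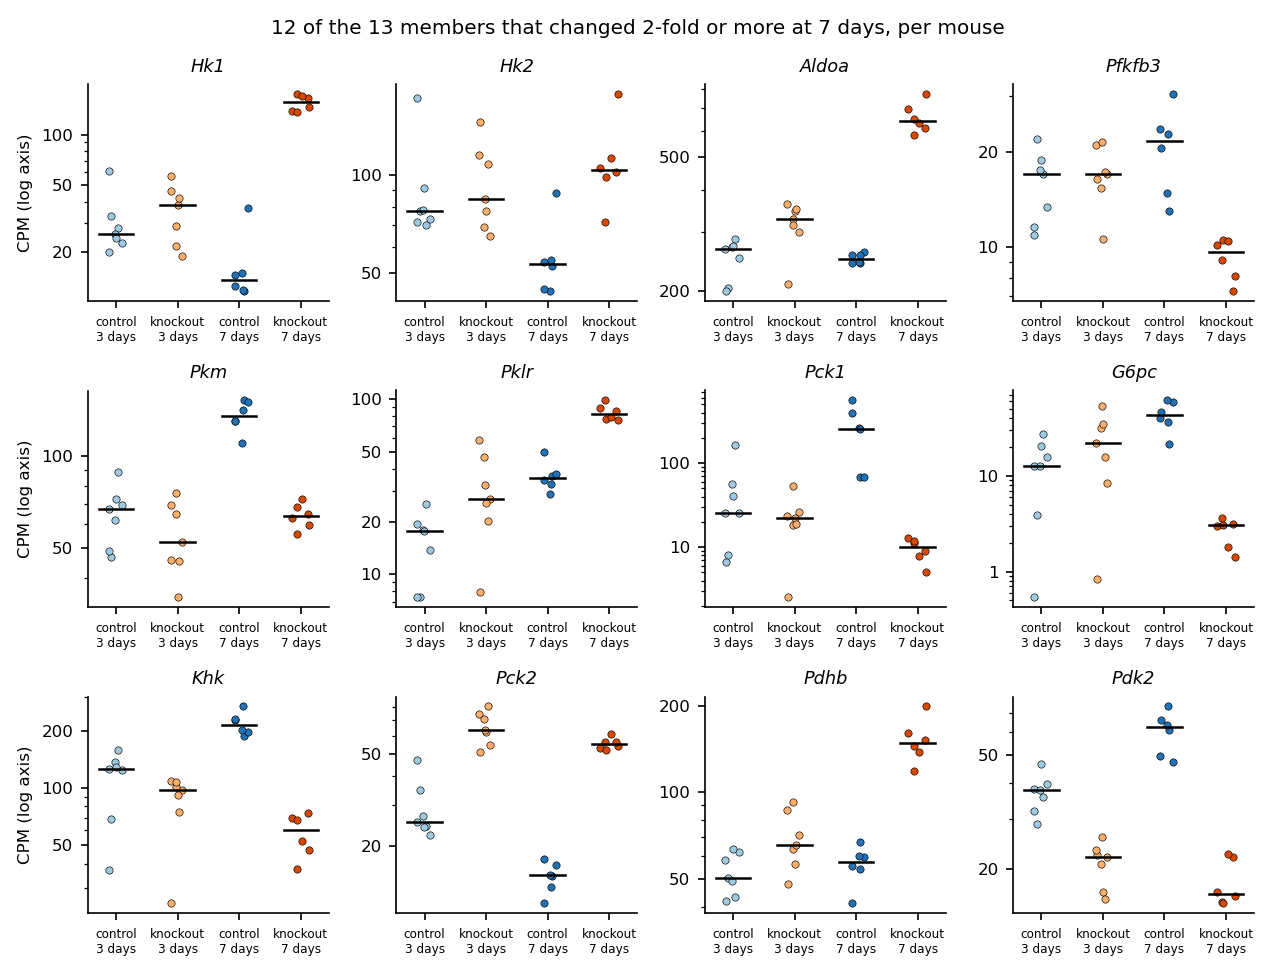
CPM (log axis) of 12 of the 13 members that changed 2-fold or more at 7 days, with 1 point per mouse and a bar at the median of each group. *Gapdh*, with at most 20 counts per library, is left out. *Hk1*, *Aldoa* and *Pdhb* in knockout mice at 7 days stand above the other 3 groups, and *Pck2* is already above its controls at 3 days.

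All 7 members of gluconeogenesis and fructose use were called at 7 days, 5 lower and 2 higher (18.8% and 19.7% of all genes). The largest negative log2 fold changes among all members were here. *Pck1*, the cytosolic phosphoenolpyruvate carboxykinase and a control point of gluconeogenesis (chr2:173153048-173159273), was at 5.07 to 12.8 CPM (median 10.1) in knockout mice at 7 days and at 68.0 to 558 CPM (median 257) in controls. No knockout mouse reached a control mouse, and the log2 fold change was −4.78 ± 0.48 (adjusted p = 2.48e-07). At 3 days *Pck1* was uneven in both groups, at 2.52 to 53.7 CPM (median 22.4) in knockout and 6.72 to 164 CPM (median 25.7) in control mice, and was not called (−0.83 ± 0.60, adjusted p = 0.608). The knockout values at 7 days overlapped those of both groups at 3 days.

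*Pck2*, the mitochondrial form of the same enzyme (chr14:55540266-55551242), went the other way and was the one member higher without overlap at both times. It had 51.1 to 80.4 CPM (median 63.3) in knockout and 22.3 to 47.3 CPM (median 25.5) in controls at 3 days (log2 fold change 1.26 ± 0.17, adjusted p = 8.09e-04). Such a separation of the groups was seen for 0.848% of all genes tested at 3 days. At 7 days *Pck2* had 52.0 to 61.0 CPM (median 55.2) against 11.3 to 17.5 CPM (median 15.0), a log2 fold change of 1.94 ± 0.10 (adjusted p = 2.56e-11). The knockout range at 7 days thus lay within that at 3 days, and the control mice at 7 days were all below those at 3 days. The count ratio of *Pck2* to *Pck1* was 0.0283 to 0.241 in control and 4.14 to 10.7 in knockout mice at 7 days, while at 3 days the ranges of 0.148 to 7.04 and 1.18 to 20.3 overlapped.

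**Figure D4:**
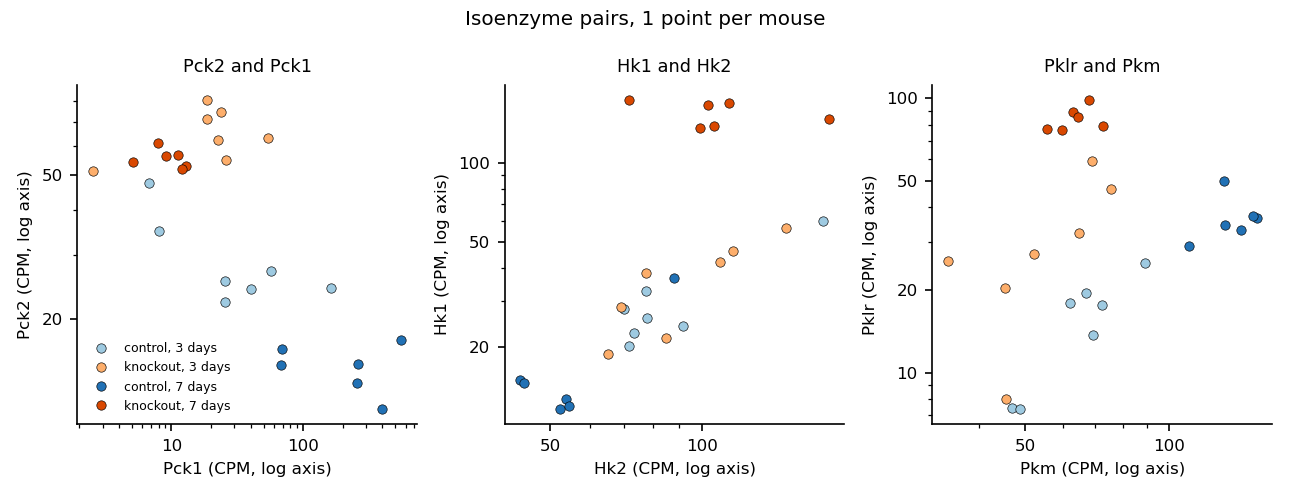
CPM of *Pck2* against *Pck1*, *Hk1* against *Hk2* and *Pklr* against *Pkm*, with 1 point per mouse and both axes logarithmic. Knockout mice at 7 days, with *Pck2* at 52.0 to 61.0 CPM and *Pck1* at 5.07 to 12.8 CPM, lie apart from their controls in each panel, and 1 knockout mouse at 3 days lies next to them in the first panel, with 51.1 and 2.52 CPM.

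*G6pc*, the phosphatase that releases free glucose (chr11:101367561-101377903), was at 1.43 to 3.60 CPM (median 3.03) in knockout and 21.5 to 61.2 CPM (median 42.9) in control mice at 7 days. The groups did not overlap and the log2 fold change was −4.00 ± 0.25 (adjusted p = 5.42e-10). At 3 days it spanned 0.841 to 53.4 CPM (median 21.96) and 0.538 to 27.0 CPM (median 12.7) and the fitted change had the other sign without being called (0.97 ± 0.61, adjusted p = 0.53). *Khk*, ketohexokinase, which starts fructose use (chr5:30921431-30931248), fell to 37.5 to 74.2 CPM (median 60.4) from 188 to 268 CPM (median 215) at 7 days (−1.89 ± 0.16, adjusted p = 3.94e-08), with no overlap. At 3 days *Khk* was at 24.8 to 108 CPM (median 98.0) in knockout and 37.4 to 158 CPM (median 126) in control mice (−0.23 ± 0.31). The genes of fructose bisphosphatase split, with *Fbp1* higher (0.76 ± 0.25, adjusted p = 0.0214) and *Fbp2* lower (−0.84 ± 0.13, adjusted p = 3.47e-05) at 7 days. *Pcx*, the mitochondrial pyruvate carboxylase that refills oxaloacetate, was lower by 0.71 ± 0.22 on the log2 scale (adjusted p = 0.0169). With pancreatic and stomach marker scores as covariates the calls of *Fbp1* (adjusted p = 0.08842) and *Pcx* (adjusted p = 0.0775) were lost, and that of *Fbp1* was also lost in 1 fit of all 26 libraries (adjusted p = 0.1167) and in 3 of 12 fits that left out 1 library. Beside these changes, 11 of the 12 enterocyte markers were lower at 7 days, with a median log2 fold change of −2.52, and 0 of 12 were called at 3 days. All 10 proliferation markers were also lower at 7 days, without overlap and with a median of −1.51, and of 9 lymphocyte and plasma cell markers tested 5 were lower and 2 higher. The part of these markers in the changes of *Pck1*, *G6pc*, *Khk* and the other members was not tested.

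Promoter windows of 250 bases before to 50 bases after the annotated start were read from RefSeq (GRCm38.p6) for 44 of the 45 members and searched on both strands. A gene was counted when any of its windows held the letters. The 44 members had 65 windows and the 27025 gene symbols had 32851, and the shares below were not adjusted for the number of windows. TGATGNAA, the letters bound by ATF4 with a C/EBP partner, occurred in 2 members, *Pck2* and *G6pc* (4.55%, against 4.51% of all 27025 gene symbols with a window), and these moved in opposite directions at 7 days. CACGTG, the E-box, occurred in 8 members (18.2%, against 8.09%), of which *Khk*, *Pdk2*, *Pfkfb3*, *Fbp2* and *Pcx* were called lower, *Ldha*, *Ogdh* and *Pfkm* were not called, and none was called higher. ACGTG, the core of the hypoxia element, which is contained in every E-box match, occurred in 18 members (40.9%, against 21.8%), 5 of them called higher and 6 lower at 7 days. Such matches describe letters in a window and are not binding sites. The stretches of 30 bases around the matches of *Pck2* and *G6pc* and around the E-boxes of the 3 members that held one and were called lower with a 2-fold or larger change are given 5′ to 3′ on the strand of the gene, with the match in capitals. For *Pck2* and *G6pc* it reads on the opposite strand and so appears as its reverse complement.
Pck2, chr14:55540152-55540181: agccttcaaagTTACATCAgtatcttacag
G6pc, chr11:101367567-101367596: cctgaacatgtTTGCATCAacctactgatg
Khk, chr5:30921476-30921505: agcgttccccgtCACGTGacaccgttaatc
Pdk2, chr11:95041480-95041509: ctcgaggagagcCACGTGtcgaagcgcaag
Pfkfb3, chr2:11502126-11502155: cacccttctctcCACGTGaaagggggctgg
The match starts 103 bases before the annotated start in *Pck2*, 138 in *G6pc*, 71 in *Khk*, 126 in *Pdk2* and 53 in *Pfkfb3*, where it is start number 2 of those listed. These are RefSeq starts, and the gene coordinates of *G6pc* and *Khk* given above, which come from GENCODE, begin further upstream, so that both stretches lie within those coordinates.

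At the entry of pyruvate into mitochondria, 5 of 8 members were higher and 2 were lower at 7 days (19.7% and 18.8% of all genes). The higher ones were *Mpc2* and the 4 listed subunits of pyruvate dehydrogenase, and the lower ones were *Pdk1* and *Pdk2*, kinases that switch this complex off. *Pdhb*, the beta subunit of its first component (chr14:8165996-8173025), was at 118 to 199 CPM (median 148) in knockout and 41.0 to 67.0 CPM (median 57.4) in control mice at 7 days, with no overlap (log2 fold change 1.47 ± 0.12, adjusted p = 2.26e-08). At 3 days it had 48.1 to 92.2 CPM (median 65.6) and 41.9 to 63.7 CPM (median 50.2) and was not called (0.51 ± 0.17, adjusted p = 0.161). *Pdha1*, the alpha subunit, was higher at 7 days by 0.55 ± 0.10 (adjusted p = 1.66e-04), *Dld*, the shared lipoamide dehydrogenase, by 0.42 ± 0.08 (adjusted p = 4.46e-04), *Dlat*, the acetyltransferase core, by 0.33 ± 0.11 (adjusted p = 0.0263) and *Mpc2*, a subunit of the pyruvate carrier, by 0.35 ± 0.13 (adjusted p = 0.036). The calls of *Dlat* and *Mpc2* were lost when single libraries were left out, in 7 and 8 of 12 cases. *Mpc1*, the partner of *Mpc2*, had at most 8.5 counts, was not called (−0.75 ± 0.45) and shares 47.5% of its 3′ stretches with 3 other genes. *Pdha1* shares 21.1% of its stretches with 1 other gene and overlaps *Map3k15* on the other strand. Median counts of *Map3k15* were 166.25 in knockout and 101.75 in control mice at 7 days.

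*Pdk2*, a pyruvate dehydrogenase kinase (chr11:95026258-95041354), was lower without overlap at both times. It had 15.8 to 25.9 CPM (median 22.003) in knockout and 28.8 to 46.4 CPM (median 37.8) in controls at 3 days (log2 fold change −0.70 ± 0.15, adjusted p = 0.0202), and 15.2 to 22.7 CPM (median 16.4) against 47.3 to 73.8 CPM (median 62.3) at 7 days (−1.72 ± 0.14, adjusted p = 1.10e-08). The 3-day call was lost without control replicate 7 (−0.64, adjusted p = 0.0539), with the replicate number as a block (−0.71, adjusted p = 0.1366) and with pancreatic and stomach marker scores as covariates (−0.68, adjusted p = 0.05215). *Pdk1*, a second kinase, was lower at 7 days (−0.93 ± 0.12, adjusted p = 5.78e-06), at 6.88 to 9.18 CPM against 13.7 to 18.9 CPM, and was not called at 3 days (−0.47 ± 0.15, adjusted p = 0.161).

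Of the 12 members of the citric acid cycle 3 were higher, 2 were lower and 7 were not called at 7 days, against 19.7% of all genes called higher and 18.8% called lower, and none of the 12 was called at 3 days, where 1 had an unadjusted p under 0.05. *Cs*, citrate synthase, at the entry of the cycle, had the largest rise of them, with 509 to 683 CPM (median 575) in knockout and 247 to 394 CPM (median 299) in control mice at 7 days, without overlap (log2 fold change 0.94 ± 0.13, adjusted p = 1.79e-05). *Idh2*, the NADP-linked isocitrate dehydrogenase, fell to 28.2 to 39.8 CPM from 59.2 to 76.0 CPM (−0.93 ± 0.10, adjusted p = 9.81e-07), also without overlap. Of the NAD-linked isocitrate dehydrogenase, *Idh3b* was higher (0.78 ± 0.13, adjusted p = 1.16e-04), while *Idh3a* (0.26 ± 0.11, adjusted p = 0.0646) and *Idh3g* (0.13 ± 0.09, adjusted p = 0.308) were not called. The difference between these subunits was not tested.

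Succinyl-CoA ligase pairs 1 alpha subunit with either an ATP-forming or a GTP-forming beta subunit. *Sucla2*, the ATP-forming one, was at 96.5 to 125 CPM (median 113) in knockout and 123 to 165 CPM (median 140) in control mice at 7 days (−0.31 ± 0.11, adjusted p = 0.042), and at 54.9 to 115 (median 97.3) and 58.6 to 111 CPM (median 103) at 3 days. *Suclg2*, the GTP-forming one, had 14.2 to 18.2 CPM (median 16.1) against 10.6 to 16.3 CPM (median 12.4) at 7 days (0.38 ± 0.13, adjusted p = 0.0212), and 10.6 to 17.8 (median 15.1) against 9.41 to 23.1 CPM (median 18.2) at 3 days. Each gene's groups overlapped at both times, and their opposite calls were lost in 5 and 2 of the 12 fits that left out 1 library. The count ratio of *Sucla2* to *Suclg2* was 5.67 to 8.81 in knockout and 8.72 to 13.2 in control mice at 7 days. At 3 days it was 4.14 to 8.81 in knockout and 3.87 to 6.23 in control mice. The ratios of the control mice at 7 days were thus all above those of the controls at 3 days. *Suclg1*, the alpha subunit, did not move beyond its error (0.01 ± 0.10).

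*Ogdh* and *Dlst*, components of the oxoglutarate dehydrogenase complex, and *Fh1*, fumarase, were not called at 7 days, with log2 fold changes of 0.02 ± 0.13, −0.09 ± 0.12 and 0.18 ± 0.08. *Mdh2*, the mitochondrial malate dehydrogenase, was at 947 to 1234 CPM (median 1082) in knockout and 802 to 1031 CPM (median 942) in control mice at 7 days (0.25 ± 0.11, adjusted p = 0.0712), and at 211 to 872 (median 595) and 241 to 583 CPM (median 443) at 3 days. *Mdh1*, its cytosolic partner in the malate-aspartate shuttle, was at 374 to 501 CPM (median 460) and 414 to 760 CPM (median 615) at 7 days (−0.41 ± 0.17, adjusted p = 0.0644), and at 111 to 448 (median 292) and 114 to 385 CPM (median 223) at 3 days. Neither was called, but *Mdh1* was called lower at 7 days under 6 of the other ways of processing and also without the stomach-rich libraries. Every knockout mouse at 7 days had a count ratio of *Mdh2* to *Mdh1* of 2.15 to 2.56 (median 2.44), against 1.15 to 2.11 (median 1.65) in controls. At 3 days the ratio was 1.91 to 2.85 (median 2.04) in knockout and 1.51 to 2.53 (median 2.12) in control mice. The ranges overlapped at 3 days, and the control median was lower at 7 than at 3 days.

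Cytosolic and mitochondrial steps were changed about as often at 7 days but by different amounts. Of the 20 cytosolic members tested 15 were called (75.0%), 9 higher and 6 lower, and of the 22 mitochondrial members 14 (63.6%), 9 higher and 5 lower, against 38.5% of all genes and 56.9% of those averaging 50 or more counts. A called change of 2-fold or more was reached by 9 cytosolic (45%) and 3 mitochondrial members (13.6%), the latter being *Pck2*, *Pdhb* and *Pdk2*, beside 16.0% of all genes. The median size of the log2 fold change was 0.84 for cytosolic and 0.40 for mitochondrial members, beside 0.46 over all genes. Signed, the medians were 0.00 and 0.21, beside −0.02 over all genes, and the cytosolic values ran from −4.78 to 3.23 and the mitochondrial ones from −1.72 to 1.94. At 3 days 1 cytosolic and 2 mitochondrial members were called, and the signed medians were 0.25 and 0.19. These are descriptions, and the difference between the compartments was not tested.

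The mean log2 CPM over the 20 cytosolic members was 5.91 ± 0.13 (SD, n = 6) in knockout and 5.88 ± 0.14 (n = 6) in control mice at 7 days, and over 21 mitochondrial members (without *Mpc1*) 6.75 ± 0.10 and 6.57 ± 0.10. The difference of mitochondrial minus cytosolic means was 0.84 ± 0.10 in knockout and 0.70 ± 0.10 in control mice at 7 days, with overlapping ranges of 0.68 to 0.92 and 0.59 to 0.87. At 3 days it was 0.81 ± 0.13 (n = 7) and 0.86 ± 0.14 (n = 7). The compartment means were lower and more spread at 3 days, at 4.71 to 5.75 for the cytosolic and 5.53 to 6.53 for the mitochondrial members in knockout mice. The lowest knockout mouse at 3 days in both was replicate 1, which was rich in stomach genes.

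**Figure D5:**
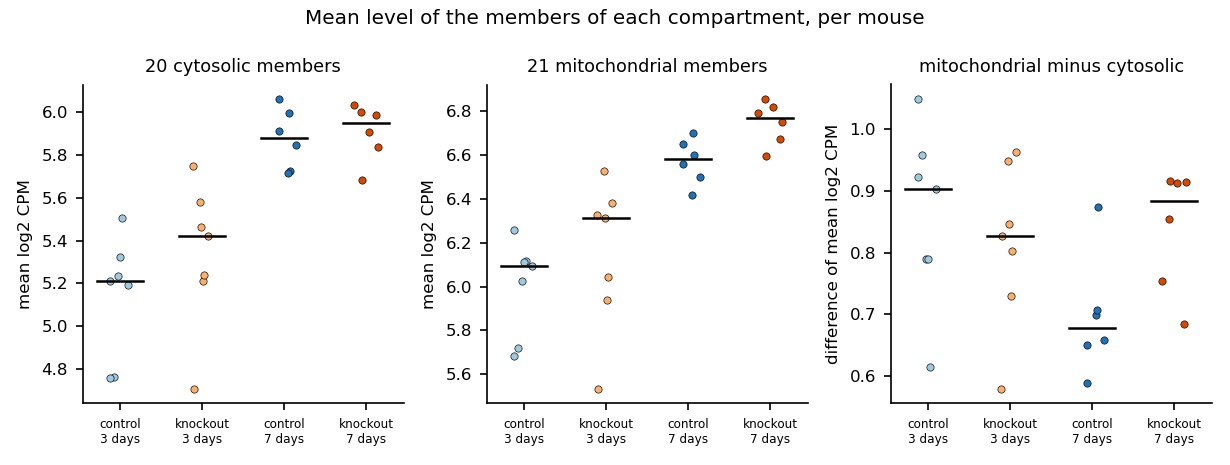
Mean log2 CPM per mouse over the cytosolic members, over the mitochondrial members, and their difference, with 1 point per mouse and a bar at the group median. The group medians of both means are higher at 7 than at 3 days in both genotypes. The cytosolic means of knockout mice overlap between the days (4.71 to 5.75 at 3 days and 5.68 to 6.04 at 7 days). The mitochondrial mean of knockout mice at 7 days (6.60 to 6.86) overlaps that of their controls (6.42 to 6.70).

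The genotype effect differed between the days for 13 of 43 members (30.2%), 5 with a higher and 8 with a lower value at 7 days, against 18.4% of 19604 genes tested (8.64% positive and 9.74% negative) and 27.7% of those averaging 50 or more counts. A difference of 2-fold or more was called for 7 of the 43, against 10.3% of all genes. The positive ones were *Hk1* (difference of log2 fold changes 2.93 ± 0.38, adjusted p = 1.87e-06), *Aldoa* (0.99 ± 0.17, adjusted p = 1.12e-04), *Pdhb* (0.98 ± 0.21, adjusted p = 0.00124), *Pck2* (0.71 ± 0.21, adjusted p = 0.0177) and *Hk2*. *Hk2* lay at the threshold (0.89 ± 0.32, adjusted p = 0.0498) and lost its call in 17 of 26 fits that left out 1 library. The negative ones were *G6pc* (−4.95 ± 0.78, adjusted p = 3.22e-05), *Pck1* (−3.93 ± 0.85, adjusted p = 0.0013), *Khk* (−1.64 ± 0.39, adjusted p = 0.00303), *Pfkfb3* (−1.34 ± 0.27, adjusted p = 5.94e-04), *Fbp2* (−1.15 ± 0.28, adjusted p = 0.004), *Pdk2* (−1.0003 ± 0.20, adjusted p = 6.67e-04), *Pkm* (−0.93 ± 0.22, adjusted p = 0.00352) and *Idh2* (−0.68 ± 0.16, adjusted p = 0.00208). *Pfkp*, *Cs* and *Pklr* did not pass this test (−0.26 ± 0.24, 0.22 ± 0.32 and 0.10 ± 0.42), which does not show that their effects were alike at both days.

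Control mice of the 2 days also differed, which bears on every comparison between days. From 3 to 7 days 29 members were higher and 2, *Ldhb* and *Pck2*, were lower in controls (31 of 43, 72.1%, against 36.0% of 20646 genes tested, of which 19.7% were higher and 16.3% lower, and 52.4% of those averaging 50 or more counts). *Pck1* was higher by 2.92 ± 0.66 on the log2 scale (adjusted p = 0.00238), *G6pc* by 2.08 ± 0.43 (adjusted p = 0.00118), *Mdh1* by 1.83 ± 0.26 (adjusted p = 6.50e-05), *Mdh2* by 1.44 ± 0.20 (adjusted p = 5.76e-05), *Pkm* by 1.43 ± 0.14 (adjusted p = 1.55e-05) and *Cs* by 1.27 ± 0.20 (adjusted p = 1.63e-04). Of the citric acid cycle 9 of 12 members were higher and none was lower. *Pck2* was lower by 0.64 ± 0.18 (adjusted p = 0.0103) and *Ldhb* by 1.01 ± 0.24 (adjusted p = 0.00379). *Hk1* and *Hk2* were not called (−0.50 ± 0.30 and −0.35 ± 0.23). *Hk1* was called, however, with pancreatic and stomach scores as covariates, without control replicate 2 at 7 days, and without the stomach-rich libraries. Without those libraries its control values were 20.1 to 32.7 CPM at 3 days and 11.7 to 15.0 CPM at 7 days, with no overlap.

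The control groups of the 2 days also held unlike amounts of other tissue markers. All 12 enterocyte markers were higher and all 10 smooth muscle markers were lower at 7 days, and the smooth muscle genes summed to 2949 to 4956 CPM at 3 days and 1408 to 2032 CPM at 7 days. With the smooth muscle score as a covariate in the edgeR fit, 0 of the 43 members and 0 of all genes were called, and 7 members had an unadjusted p under 0.05, with a median SE of 0.33 in place of 0.17. The score separates the 2 days without overlap, so this fit cannot tell the day apart from it, nor can the day be told apart from any batch that coincided with it. With upper-quartile scaling, which moved the median of all genes by −0.15 on the log2 scale, the calls over all genes were 3002 higher and 4772 lower (38.6% higher) in place of 4077 and 3364 (54.8%). The median of the members was then 0.62 in place of 0.77, 26 of the 31 calls held, and none changed direction.

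A list of 48 further genes of these pathways, mostly isoenzymes, transporters and neighbouring steps, also held changes in both directions. At 7 days 46 were tested, 19 were higher and 10 were lower, against 19.7% and 18.8% of all genes, and at 3 days 1 of 48, *Aldoc*, was called, against 1.43% of all genes. *Aldoc*, another aldolase, was lower at both times (log2 fold change −1.66 ± 0.32, adjusted p = 0.0137, and −2.97 ± 0.27, adjusted p = 5.44e-08), at 1.26 to 2.85 CPM in knockout against 6.33 to 23.0 CPM in control mice at 7 days. *Me1*, the cytosolic malic enzyme, which makes pyruvate from malate, rose to 110 to 147 CPM from 11.1 to 33.0 CPM at 7 days (2.86 ± 0.21, adjusted p = 4.46e-09). *Me2*, the mitochondrial malic enzyme, fell to 19.1 to 36.0 CPM from 118 to 242 CPM (−2.64 ± 0.20, adjusted p = 6.55e-09). This is the reverse of the carboxykinases, where the mitochondrial gene was higher and the cytosolic gene lower than in controls.

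The alanine aminotransferases, which exchange pyruvate and alanine, moved apart as well. *Gpt2* (mitochondrial) rose to 21.4 to 29.3 CPM from 2.50 to 7.82 CPM (2.79 ± 0.20, adjusted p = 2.88e-09). *Gpt* (cytosolic) was lower than in controls, at 29.0 to 53.7 CPM against 83.8 to 159 CPM (−1.51 ± 0.17, adjusted p = 1.14e-06). *Got1*, the cytosolic aspartate aminotransferase of the malate-aspartate shuttle, rose (1.38 ± 0.13, adjusted p = 9.54e-08). *Ldhd*, the dehydrogenase of D-lactate, rose to 9.02 to 17.2 CPM from 2.22 to 5.65 CPM (2.03 ± 0.22, adjusted p = 5.66e-07). *Slc37a4*, which carries glucose 6-phosphate to the phosphatase in the endoplasmic reticulum, fell like *G6pc* (−2.09 ± 0.16, adjusted p = 9.90e-09). Around pyruvate dehydrogenase, *Pdk3*, another kinase, fell (−1.81 ± 0.22, adjusted p = 2.27e-06), and so did *Pdp2*, a phosphatase that switches the complex on (−1.54 ± 0.12, adjusted p = 5.39e-09). The other phosphatase, *Pdp1*, went the other way at low counts (at most 29), with 3.33 to 5.50 CPM in knockout and 0.770 to 3.39 CPM in control mice at 7 days. The kinase *Pdk4* was at 6.12 to 28.7 CPM in knockout and 5.30 to 18.3 CPM in control mice. For both *Pdp1* and *Pdk4* the groups overlapped. For the 10 genes with the largest called change, the knockout and control mice did not overlap in any at 7 days, which their choice by size favours. In the list, 15 higher and 8 lower genes of the 46 tested did not overlap, against 22.6% of all genes tested.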

How the data were processed

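Estimated counts per gene were deposited by the authors, who trimmed reads with Cutadapt 2.10 (minimum length 35), aligned them with Subread to GRCm38 and counted them with featureCounts 2.0.1 on Ensembl 100 (primary alignments, mapping quality of at least 30, overlap of at least 20 bases). Reads that overlap several genes were divided among them, so 95.0% of the values were whole, and the counts were rounded here. Strand use in the counting is not given in the sources used here. CPM were also deposited by the authors and equal the counts over the library total; they were used for description only. The 92 spike-in rows were all at 0 and were left out.

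Groups came from the sample labels. The targeted gene is not reported here. Each library is 1 mouse, and no 2 libraries held identical values. Genes were left out when most mice of any group compared had no count. The quasi-likelihood test of edgeR 4.0.16 (R 4.3.3, TMM, Benjamini-Hochberg over all genes tested, threshold 0.05) was fitted per comparison, and to all 26 libraries for the difference between days; it was checked on simulated counts. The SE is the log2 fold change over the root of F. DESeq2 1.42.0 (Wald test) was tried as an alternative, as were other scalings and filters, no rounding, the replicate number as a block, marker scores as covariates, 1 fit of all libraries, and leaving out each library; a fit without the 4 stomach-rich libraries was added after the values were seen.

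The members and lists were chosen with earlier results of these data known. All members are named. Ranges are given for members called with a change of at least 2-fold at either day and for isoenzymes, and of the other pathway genes the 10 with the largest called change at 7 days are named. *Pdp1* and *Pdk4* are named beside them. Of 94 markers in 10 lists 93 were matched. Sequences are from RefSeq (GRCm38.p6), coordinates of genes from GENCODE for GRCm38. Pictures show the values of the same tables.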

Additional observations from a re-analysis of the deposited data

Results flagged for a closer look

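Single mice stood far from the rest of their group in 15 of 168 combinations of member and group by Dixon's criterion. Chance would give about 8.4 (1 in 20) if the combinations were independent. Members measured in the same library are not, so the 2 numbers cannot be compared strictly. Most came from the stomach-rich libraries. Control replicate 5 at 3 days was highest in *Hk1* (60.5 CPM) and *Hk2* (173.6 CPM) and lowest in *Dld* (27.4 CPM) and *Suclg2* (9.41 CPM). Control replicate 2 at 7 days was highest in *Hk1* (36.7 CPM), *Hk2* (87.9 CPM), *Pfkl* (43.0 CPM) and *Pcx* (35.6 CPM). Knockout replicate 1 at 3 days was lowest in *Aldoa* (209.0 CPM), *Tpi1* (69.4 CPM), *Khk* (24.8 CPM) and *Sucla2* (54.9 CPM). The remaining ones were *Pck1* in control replicate 4 at 3 days (highest, 164 CPM), *Pdk1* in knockout replicate 4 at 7 days (lowest, 6.88 CPM) and *Suclg2* in control replicate 1 at 7 days (highest, 16.3 CPM).

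The genotype effect at 7 days differed from that at 3 days in the edgeR interaction test for 13 members. The differences of log2 fold changes were positive for *Hk1* (2.93), *Aldoa* (0.99), *Pdhb* (0.98), *Hk2* (0.89) and *Pck2* (0.71). They were negative for *G6pc* (−4.95), *Pck1* (−3.93), *Khk* (−1.64), *Pfkfb3* (−1.34), *Fbp2* (−1.15), *Pdk2* (−1.0003), *Pkm* (−0.93) and *Idh2* (−0.68). Control mice changed between the days as well, and enterocyte markers differed by genotype at 7 days, and the part of either in these differences was not tested.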

How the results depend on the processing

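No called member reversed its direction under any setting. At 3 days the 2 higher and 1 lower members became 4 higher with DESeq2, 1 and 0 with the replicate block, 1 and 0 with pancreatic and stomach scores as covariates, and 5 and 2 in 1 fit of all 26 libraries. Over all genes the 230 higher and 67 lower calls became 531 and 238 with DESeq2, 79 and 20 with the block, 416 and 232 with the smooth muscle score, 606 and 204 in 1 fit, 365 and 121 without the stomach-rich libraries, and 584 and 195 without knockout replicate 1 alone. The mitochondrial median at 3 days was 0.034 with the 2 scores, and the cytosolic median at 7 days was 0.24 without a filter and 0.17 with the scores. In control mice the smooth muscle score left 0 higher and 0 lower members, and 4 were lower without the stomach-rich libraries (*Hk1* and *Pfkm* besides *Ldhb* and *Pck2*). The causes were not tested.

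Leaving out 1 library gave 1 to 7 higher members (7 without knockout replicate 1) and 0 to 1 lower at 3 days, 14 to 18 and 11 to 14 at 7 days, 4 to 5 and 8 to 10 for the difference between days, and 27 to 30 and 2 to 4 (4 without control replicate 2 at 7 days) in control mice. Medians ranged from 0.17 to 0.29 (cytosolic) and 0.12 to 0.26 (mitochondrial) at 3 days, and from −0.08 to 0.14 and 0.15 to 0.22 at 7 days. Same-numbered mice did not deviate together (r from −0.282 to 0.296 at 3 days and −0.112 to 0.232 at 7 days, best with the own number for 2 of 7 and 2 of 6). The labels do not say whether same-numbered mice were littermates or were handled together, and so few pairs cannot decide it. At 7 days 25 of 30 calls held with the pancreatic and stomach scores (not *Dlat*, *Fbp1*, *Mpc2*, *Pcx* and *Suclg2*) and 25 in 1 fit of all libraries (not *Dlat*, *Fbp1*, *Mpc2*, *Sucla2* and *Tpi1*). Under the block 30 of 30 calls held at 7 days, 1 of 3 at 3 days, 12 of 13 for the difference between days and 30 of 31 in control mice.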
